A study of Mus musculus with 20 samples.

Results

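The genes described here encode the subunits of the receptors through which nerve cells respond to GABA and to glutamate, measured in the hypothalamus of obese mice given celastrol or its solvent. A gene was a member where a probe set carried 1 platform gene symbol and that symbol named a GABA-A (Gabr), GABA-B (Gabbr), AMPA (Gria), kainate (Grik), delta (Grid), NMDA (Grin) or metabotropic glutamate receptor (Grm) subunit, and the brightest probe set over the 20 arrays stood for the gene. Membership was read from symbols alone, and measured intensity served only to choose the probe set where a gene had more than 1. The symbol rule gave 42 of the 18704 genes that had a probe set with 1 symbol in the deposited values. Of these, 16 belong to the GABA-A class, 2 to the GABA-B class, 4 to the AMPA class, 5 to the kainate class, 6 to the NMDA class and 7 to the metabotropic class, and Grid1 was the delta subunit. The remaining member, Grid2ip, matched the symbol rule but encodes a scaffold protein and is no subunit, so counts below cover the 41 subunits unless Grid2ip is named. These members are not the complete receptor families.

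GABA-A receptors are chloride channels that open when GABA binds and carry most fast inhibition, and GABA-B receptors are paired G protein-coupled receptors that inhibit more slowly. AMPA, kainate and NMDA receptors are cation channels opened by glutamate, while metabotropic glutamate receptors act through G proteins on neurons and glia. In the hypothalamus, neurons that drive or restrain feeding signal to each other and to their targets through both transmitters.

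All mice were C57BL/6J males put on a high fat diet (45% fat) at 4 weeks of age and kept on it for 16 weeks, so every group was obese through diet and no lean group was compared. Celastrol, a triterpenoid from a medicinal vine, or dimethyl sulfoxide (DMSO), in which it was dissolved, was injected into the peritoneum, with groups at 6 h, 1 day and 4 days. The labels give 25 µl DMSO a day for vehicle and celastrol mice alike and a volume of 100 µl for celastrol mice alone. They state a dose of celastrol (250 µg/kg) beside the 6 h time and none beside the others, and they do not give the number of injections before collection. Each time had 3 DMSO arrays, and the celastrol groups held 4, 4 and 3 arrays in order of time. Arrays within a group are biological replicates by their labels, which do not say whether an array held RNA of 1 animal or of a pool. Values are log2 intensities of 1 Affymetrix Mouse Gene 1.0 ST array per sample, and every difference subtracts the DMSO mean from the celastrol mean in log2 units and carries its standard error, where a difference of 1 is a doubling. Of 19 listed marker genes of the hypothalamus 18 were tested, with mean log2 intensities over the 20 arrays from 7.21 for Crh to 12.94 for Pmch, and Hcrt at 12.61, Oxt at 11.81 and Avp at 11.37. On the leading residual component, 2 arrays stood out, DMSO replicate 3 of 6 h at 11.4 and DMSO replicate 3 of 1 day at 9.61, while the other arrays scored -6.13 to 5.32. The labels name no array batch.

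Of the subunits, Gabra6, Gabrp and Gabrr3 lay below the intensity filter, with mean log2 intensities of 5.71, 6.37 and 6.19 against a filter of 7.04, and were not tested. Gabra6 is known from cerebellar granule cells and Gabrp from tissues outside the brain. The other 38 subunits and Grid2ip were tested among 14129 genes.

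No subunit passed an adjusted p of 0.05 at any of the 3 times, and the gene that came nearest was Grm3, which was lower after celastrol at 1 day. At 6 h limma called 0 of 39 members, against 0% of all tested genes, and 4 subunits, all lower, had an unadjusted p under 0.05 (5.05% of all tested genes were lower at that p, and 2.5% higher). At 1 day 0 of 39 members were called, against 0.425% of all tested genes, and 2 subunits were higher and 1 lower at an unadjusted p under 0.05 (5% and 3.19% of all tested genes). At 4 days 0 members were called, against 0.0637%, and 1 subunit was higher and 1 lower at the unadjusted level (4.25% and 2.28%). In the average of the 3 differences 0 members were called, against 0.573%, and 4 subunits and Grid2ip, all lower, had an unadjusted p under 0.05 (4.08% of all tested genes were lower at that p, and 4.69% higher). The 4 lower subunits were 10.5% of the 38 at 6 h and in the average, above the shares of all tested genes, and these counts moved with single arrays. At 6 h 0 subunits were lower at that level without DMSO replicate 3 (2.11% of all tested genes). The count was 2 without DMSO replicate 1 and 8 without DMSO replicate 2 (7.54% and 7.58%). Centring the arrays or quantile normalizing them again left 2 lower (4.15% and 3.49% of all tested genes). In the average 2 were lower without DMSO replicate 3 of 6 h, DMSO replicate 1 of 4 days or celastrol replicate 2 of 4 days. The shares of all tested genes were then 3.59%, 3.64% and 3.28%. Without DMSO replicate 2 of 6 h the count in the average was 6 (5% of all tested genes). Marker means of thalamus and cortex, or of astrocytes and oligodendrocyte precursors, as covariates left 0 lower at 6 h (1.63% and 2.15% of all tested genes). In the average they left 1 (3.11% and 1.82% of all tested genes). At 6 h array weights also left 0 (2.98% of all tested genes), and replicate number as a block gave 6 (4.69%).

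The 95% intervals bounded how large a difference in measured intensity could have gone unseen for a single gene. They were not adjusted for the number of subunits. Probe sets near the intensity filter, such as those of Grm6, Grin3b, Gabrr1 and Gabrd, respond less to a change in RNA. For these genes the intervals do not bound a difference in RNA. At 6 h the 95% interval of the difference lay within 1.25-fold either way for 34 of 38 subunits, and the other 4 were Gabra4, Gabrd, Gabrr2 and Grin3b. At 1 day the same held for all but Gabrr2 and Grm3, and at 4 days for all but Gabrr2. Intervals within 1.5-fold covered every tested subunit at 6 h and 4 days and all but Gabrr2 at 1 day. The interval reached a median of 0.11 either side of the estimate at 6 h and 1 day and 0.12 at 4 days. These are bulk measurements, in which fewer cells that express a gene and less RNA per cell cannot be told apart.

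**Figure D1:**
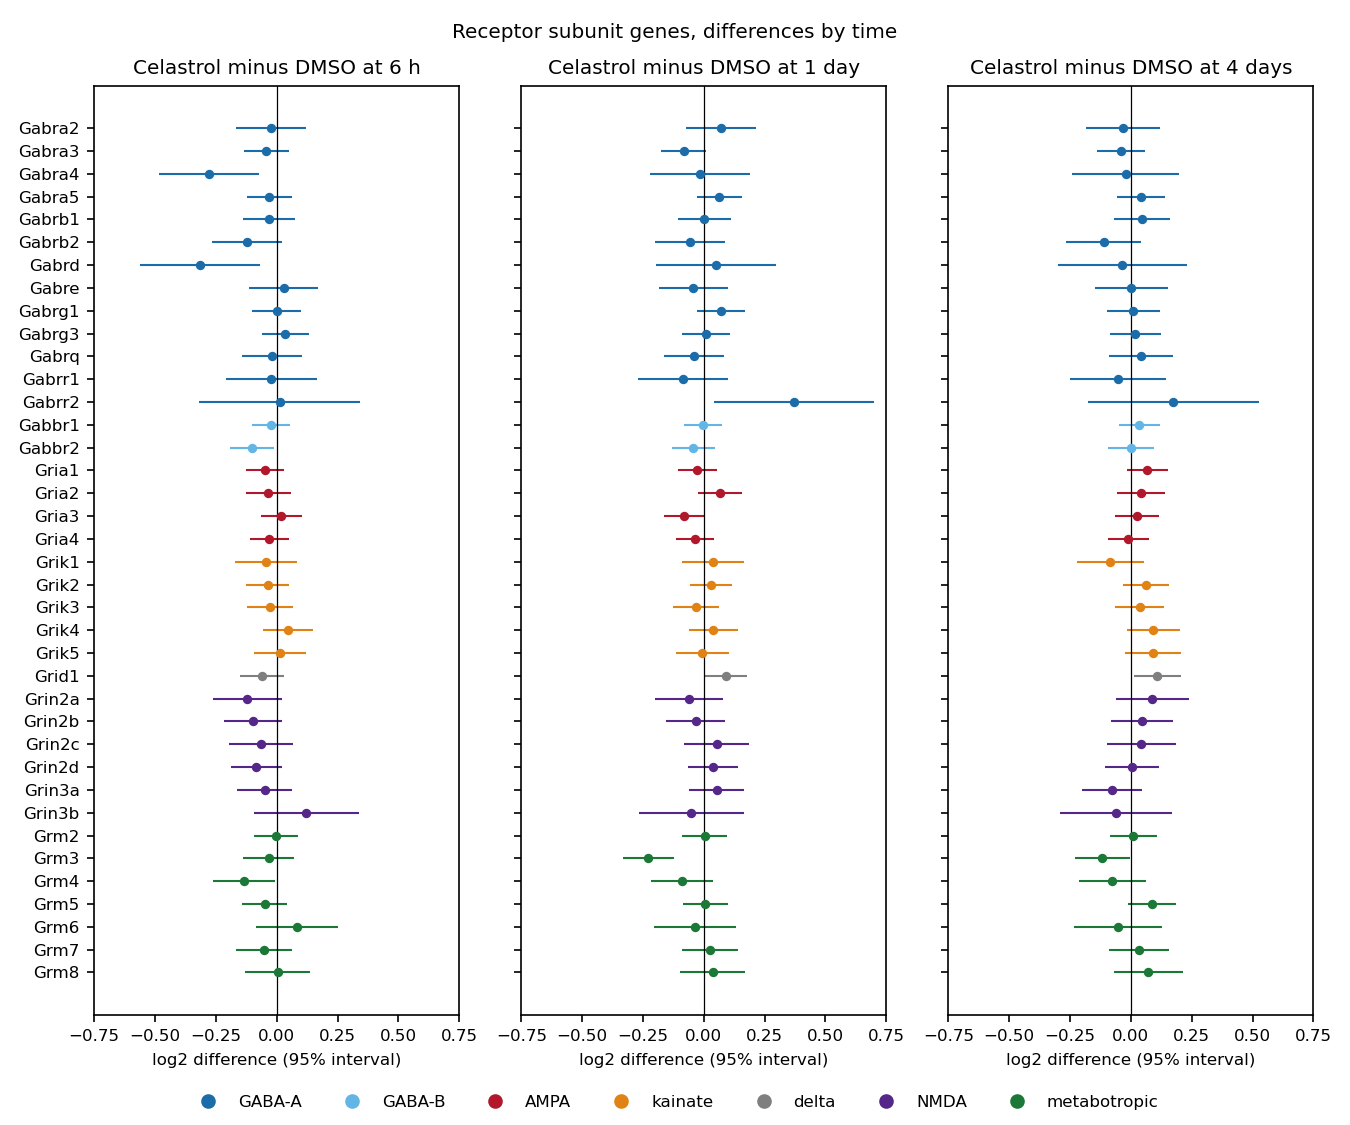
Log2 difference, celastrol minus DMSO, of each of the 38 tested receptor subunit genes at 6 h, 1 day and 4 days, with points for the estimate and lines for the 95% interval, coloured by receptor class. Most intervals cross 0; Gabra4 and Gabrd at 6 h, Gabrr2 and Grm3 at 1 day lie farthest from it.

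More subunits were lower than higher after celastrol at 6 h, and more were higher than lower at 4 days. Leaving out any 1 array kept between 24 (without celastrol replicate 2) and 30 (without celastrol replicate 1) of 38 lower at 6 h. The 6 h balance turned without DMSO replicates 1 and 3 together and with thalamus and cortex covariates. At 6 h 9 subunits were higher and 29 lower after celastrol, with a median difference of -0.032, while over all tested genes 58.3% were lower and the median was -0.015. DMSO replicates 1 and 3 of 6 h had the highest levels of thalamus markers and were left out after seeing the data. That left DMSO replicate 2 as the only control array at 6 h. Against this array 25 were higher and 13 lower, with a median of 0.020 (53.8% of all tested genes were lower). With all arrays and thalamus and cortex marker means as covariates, 23 were higher and 15 lower (56.4% of all tested genes were lower). At 1 day 19 were higher and 19 lower, with a median of -0.00062, while 53.8% of all tested genes were higher and their median was 0.0063. At 4 days 25 were higher and 13 lower, with a median of 0.021, while 54.4% of all tested genes were higher and their median was 0.0075. Centring the arrays on their medians left 27 of 38 lower at 6 h, 23 lower and 15 higher at 1 day (58.7% of all tested genes were then lower) and 22 higher at 4 days, and quantile normalizing them again left 26 lower, 19 in each direction and 22 higher. Without DMSO replicate 2 of 1 day 13 were higher and 25 lower at 1 day. Few single subunits lay outside the span from the 5th to the 95th percentile of all tested genes, which was -0.13 to 0.14 at 6 h, -0.13 to 0.14 at 1 day and -0.13 to 0.13 at 4 days. They were Gabra4, Gabrd and Grm4 at 6 h, Grm3 and Gabrr2 at 1 day and Gabrr2 at 4 days.

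Each class had a negative median at 6 h with all arrays. The medians were -0.024 for GABA-A (3 higher, 10 lower), -0.061 for GABA-B (0 and 2), -0.033 for AMPA (1 and 3), -0.028 for kainate (2 and 3), -0.074 for NMDA (1 and 5) and -0.033 for metabotropic subunits (2 and 5), and Grid1 differed by -0.060. Without DMSO replicates 1 and 3 of 6 h, with DMSO replicate 2 as the only control, all but the AMPA median (-0.0029) were positive. They were 0.0066 for GABA-A, 0.016 for GABA-B, 0.034 for kainate, 0.029 for NMDA and 0.029 for metabotropic subunits, and Grid1 differed by 0.021. With thalamus and cortex markers as covariates the GABA-B median and Grid1 stayed negative, at -0.019 and -0.018, and the other medians lay between 0.0038 and 0.030. Leaving out 1 array turned the kainate median to 0.019 (without celastrol replicate 2) and the metabotropic median to 0.0012 (without DMSO replicate 3). Without celastrol replicate 2 the GABA-A median was -0.00089 and the AMPA median -0.011. Without DMSO replicate 1 the kainate, NMDA, GABA-B and metabotropic medians were -0.0026, -0.024, -0.027 and -0.012 and Grid1 differed by -0.035, and without DMSO replicate 3 the kainate median was -0.0047. Without DMSO replicate 2 the medians were lower than with all arrays, at -0.042 for AMPA to -0.11 for NMDA. At 4 days the medians were 0.0021 for GABA-A (7 higher, 6 lower), 0.018 for GABA-B (2 and 0), 0.033 for AMPA (3 and 1), 0.062 for kainate (4 and 1), 0.023 for NMDA (4 and 2) and 0.0099 for metabotropic subunits (4 and 3), and Grid1 differed by 0.11. Quantile normalization turned the 4-day medians of the GABA-A and metabotropic classes to -0.0084 and -0.0037, and centring turned the GABA-A median to -0.0033. At 1 day the class medians lay between -0.031 for AMPA and 0.030 for kainate, and those of the GABA-A, NMDA and metabotropic classes, at 0.0019, 0.0021 and 0.0033, were -0.019, -0.019 and -0.018 after centring. GABA receptor subunits (GABA-A and GABA-B, 15 tested) had medians of -0.024, -0.0031 and 0.0021 at the 3 times. Glutamate receptor subunits (AMPA, kainate, delta, NMDA and metabotropic, 23 tested) had medians of -0.037, 0.0033 and 0.036.

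**Figure D2:**
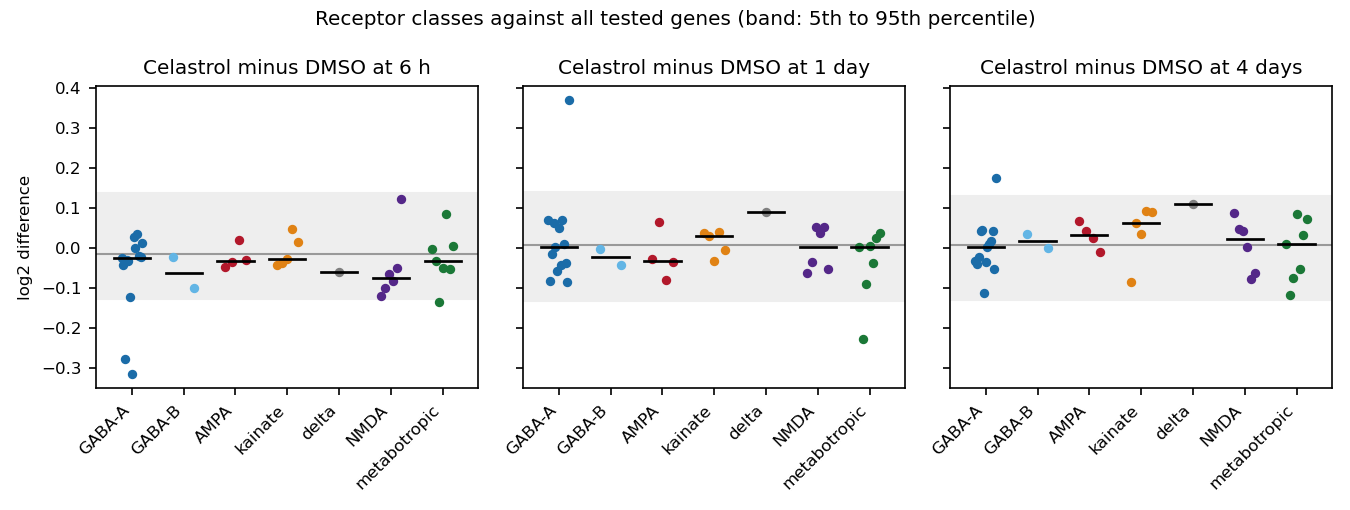
Log2 difference, celastrol minus DMSO, of each tested subunit gene by receptor class at 6 h, 1 day and 4 days, with a black line at the class median, a grey line at the median of all 14129 tested genes and a grey band from their 5th to their 95th percentile. Gabra4, Gabrd and Grm4 at 6 h, Gabrr2 and Grm3 at 1 day and Gabrr2 at 4 days lie outside the band.

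Among the GABA-A subunits the largest differences at 6 h were in Gabra4 and Gabrd, whose alpha 4 and delta proteins join in receptors outside the synapse that answer ambient GABA with a steady current. Gabra4 read 10.62, 10.44 and 11.03 on the DMSO arrays at 6 h and 10.60, 10.39, 10.26 and 10.44 on the celastrol arrays. Replicate 3 of DMSO was the highest of all 20 arrays and the groups overlapped. The difference was -0.28 ± 0.098, with adjusted p = 0.604. At 1 day Gabra4 read 10.56, 10.41 and 10.44 with DMSO and 10.53, 10.40, 10.44 and 10.47 with celastrol, and at 4 days 10.52, 10.49 and 10.48 against 10.61, 10.38 and 10.44. The groups overlapped at both times, with differences of -0.014 ± 0.098 and -0.022 ± 0.11.

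Gabrd read 7.80, 7.57 and 8.17 with DMSO at 6 h and 7.54, 7.55, 7.54 and 7.50 with celastrol. All 4 celastrol arrays were below all DMSO arrays, but the lowest DMSO array was within 0.1 of them. The difference was -0.32 ± 0.12, with adjusted p = 0.628. At 1 day the DMSO arrays read 7.54, 7.64 and 7.06 and the celastrol arrays 7.45, 7.32, 7.54 and 7.54, a difference of 0.051 ± 0.12, and at 4 days the values were 7.29, 7.42 and 7.37 against 7.37, 7.31 and 7.30. The groups overlapped at both times. The 6 h differences of both genes rested on DMSO replicate 3, without which they were -0.11 for Gabra4 and -0.15 for Gabrd, each with adjusted p = 0.999.

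Gabrr2, which encodes a rho subunit best known from the retina, was higher at 1 day. The DMSO arrays read 7.95, 8.08 and 7.85 and the celastrol arrays 8.39, 8.38, 8.34 and 8.21, with no overlap. The difference was 0.37 ± 0.16, with adjusted p = 0.526, and it was the largest at that time among the subunits. At 6 h the DMSO arrays read 8.11, 8.70 and 8.05 against 8.36, 8.32, 8.26 and 8.25, and at 4 days 7.94, 7.95 and 8.06 against 7.74, 8.06 and 8.68. Single arrays at 8.70 and 8.68 stood far from their groups, and the within-group SD of Gabrr2, 0.24, was the largest of all tested subunits. Its neighbour on chromosome 4, Gabrr1, differed by -0.085 ± 0.089 at 1 day.

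Gabrb2, a beta subunit that forms part of the GABA binding site, was lower at all 3 times, with differences of -0.12, -0.056 and -0.11. At 6 h the arrays read 11.91, 11.86 and 12.19 with DMSO and 11.95, 11.87, 11.78 and 11.84 with celastrol. At 1 day they read 11.94, 11.91 and 11.91 against 11.98, 11.83, 11.81 and 11.83, and at 4 days 12.005, 11.84 and 11.81 against 11.84, 11.71 and 11.77. The groups overlapped at each time, and the average difference was -0.097 ± 0.041, with adjusted p = 0.486. Without DMSO replicate 3 at 6 h that average was -0.063. The other 2 probe sets of Gabrb2 were also lower at each time, by -0.067 and -0.093 at 6 h, -0.081 and -0.038 at 1 day and -0.031 and -0.11 at 4 days.

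The remaining tested GABA-A genes differed by less than 0.1 at every time. They encode the alpha subunits Gabra2, Gabra3 and Gabra5, the beta subunit Gabrb1, the gamma subunits Gabrg1 and Gabrg3, which shape benzodiazepine sensitivity, the epsilon and theta subunits Gabre and Gabrq, and the rho subunit Gabrr1. Gabra3 was lower by -0.042, -0.083 and -0.040 at the 3 times, and Gabra5 differed by -0.030, 0.064 and 0.042. Gabrb1 was the 1 GABA-A gene whose groups did not overlap at 4 days, at 12.13, 12.12 and 12.10 with DMSO and 12.19, 12.17 and 12.13 with celastrol. Its difference there was 0.046 ± 0.055, with adjusted p = 0.954.

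Gabra4 and Gabrb1 lie head to head on chromosome 5, where their gene models overlap by 388 bases, in a cluster with Gabra2 and Gabrg1. The 4 genes differed at 6 h by -0.28 (Gabra4), -0.031 (Gabrb1), -0.024 (Gabra2) and -0.00068 (Gabrg1). The RefSeq windows from 250 bases before to 50 bases after the start of both head-to-head genes are shown because only 1 of these neighbours had a low p at 6 h. They are given 5′ to 3′ on the gene's strand, from GRCm38.p6, with the GC box GGGCGG (searched on both strands, so that it also reads CCGCCC) in capitals. The Gabra4 window is chr5:71658259-71658558 on the minus strand and the Gabrb1 window chr5:71657671-71657970 on the plus strand.
Gabra4: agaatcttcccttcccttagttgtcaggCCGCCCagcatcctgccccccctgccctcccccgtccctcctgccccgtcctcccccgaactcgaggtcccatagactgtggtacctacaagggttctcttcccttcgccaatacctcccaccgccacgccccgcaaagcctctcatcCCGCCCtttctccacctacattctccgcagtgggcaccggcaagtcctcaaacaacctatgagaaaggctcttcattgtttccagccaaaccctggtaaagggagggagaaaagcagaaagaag
Gabrb1: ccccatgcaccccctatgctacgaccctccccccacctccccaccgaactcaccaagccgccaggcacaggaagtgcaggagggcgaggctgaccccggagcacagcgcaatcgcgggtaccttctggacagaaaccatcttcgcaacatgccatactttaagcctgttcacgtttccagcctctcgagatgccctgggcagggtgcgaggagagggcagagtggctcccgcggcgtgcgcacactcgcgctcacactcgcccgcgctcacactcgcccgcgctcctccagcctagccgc

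The Gabra4 window held 2 GC boxes and that of Gabrb1 none, at a GC content of 58.7% and 66.0%. Of 40 windows of 32 members, 50% held a GC box, against 35.7% of all 32851 windows of that length, and the median GC content was 60.4% against 52.7%. The core hexamer of the glucocorticoid response element (AGAACA, both strands) was in 15% of the member windows and 19.0% of all windows, the cyclic AMP response element (TGACGTCA) in 0% and 1.79%, and the TATA box (TATAAA) in 10% and 13.6%. A match is a description of these letters and not a bound site.

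**Figure D3:**
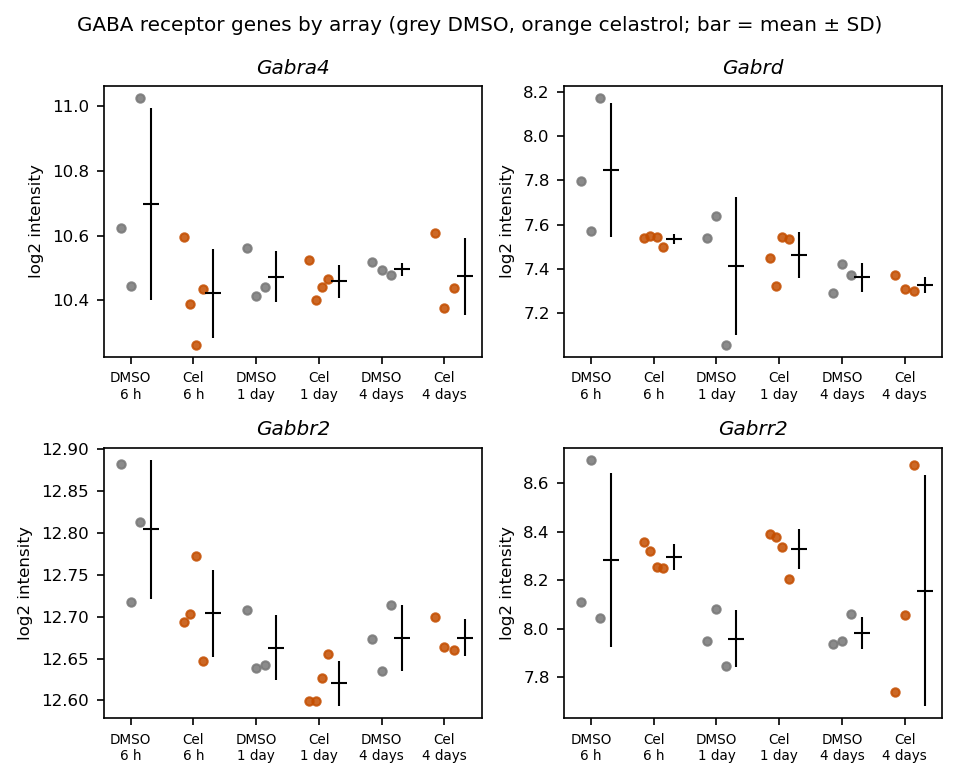
Log2 intensity of Gabra4, Gabrd, Gabbr2 and Gabrr2 on each array by group (grey points DMSO, orange points celastrol, bar with line the mean ± SD of 3 or 4 arrays). DMSO arrays at 6 h spread widely in Gabra4 (10.44 to 11.03) and Gabrd (7.57 to 8.17), and the 1-day celastrol arrays of Gabrr2 all lie above the DMSO arrays.

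The GABA-B receptor needs both of its subunits: Gabbr1 binds GABA, and Gabbr2 brings the pair to the cell surface and couples it to the G protein. Gabbr2 read 12.88, 12.72 and 12.81 with DMSO at 6 h and 12.69, 12.70, 12.77 and 12.65 with celastrol. The groups overlapped, and the difference was -0.10 ± 0.043, with adjusted p = 0.647. At 1 day the values were 12.71, 12.64 and 12.64 against 12.60, 12.60, 12.63 and 12.66, and at 4 days 12.67, 12.64 and 12.71 against 12.70, 12.66 and 12.66. The average difference was -0.048 ± 0.025. Gabbr1 differed by -0.022, -0.0031 and 0.035 at the 3 times and had the smallest within-group SD of all tested subunits, 0.035.

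AMPA receptors carry most fast excitation, and Gria2 makes them impermeable to calcium. Gria3 was the AMPA subunit with the smallest p at 1 day. It read 11.78, 11.82 and 11.81 with DMSO and 11.79, 11.70, 11.66 and 11.74 with celastrol, so that 3 of 4 celastrol arrays were below every DMSO array and the fourth lay among them. The difference was -0.080 ± 0.040, with adjusted p = 0.621. Gria3 read 11.69, 11.66 and 11.65 against 11.70, 11.62, 11.68 and 11.75 at 6 h, and 11.76, 11.74 and 11.72 against 11.79, 11.73 and 11.78 at 4 days. The groups overlapped at both times.

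Gria1 was the subunit whose arrays separated in opposite directions at 6 h and 4 days. At 6 h it read 12.56, 12.54 and 12.60 with DMSO and 12.53, 12.51, 12.52 and 12.51 with celastrol, and all celastrol arrays were lower. At 4 days it read 12.52, 12.58 and 12.56 against 12.64, 12.62 and 12.62, and all celastrol arrays were higher. The differences were -0.048 ± 0.038 and 0.068 ± 0.041, and the change between these times was 0.12 ± 0.056, with adjusted p = 0.648. Gria2 differed by -0.034, 0.066 and 0.042 at the 3 times. Gria4 had the smallest p of the AMPA class in the average, -0.026 ± 0.022 with adjusted p = 0.849. It read 11.36, 11.41 and 11.41 against 11.42, 11.33, 11.30 and 11.40 at 6 h, 11.38, 11.44 and 11.43 against 11.38, 11.40, 11.36 and 11.38 at 1 day and 11.42, 11.40 and 11.37 against 11.43, 11.38 and 11.35 at 4 days, with overlap throughout.

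Kainate receptors combine Grik1, Grik2 and Grik3 with the high-affinity subunits Grik4 and Grik5, which do not form channels alone. At 4 days Grik4 read 10.64, 10.76 and 10.69 with DMSO and 10.82, 10.76 and 10.78 with celastrol. The groups did not overlap, though by less than 0.01, and the difference was 0.093 ± 0.052, with adjusted p = 0.821. It read 10.65, 10.53 and 10.47 against 10.66, 10.55, 10.57 and 10.62 at 6 h, and 10.66, 10.53 and 10.67 against 10.66, 10.66, 10.62 and 10.70 at 1 day. Those groups overlapped. Grik5 and Grik2 were also above the DMSO arrays on every celastrol array at 4 days, with Grik5 at 11.30, 11.36 and 11.22 against 11.21, 11.20 and 11.20 and a difference of 0.090 ± 0.055. Grik2 read 11.58, 11.59 and 11.56 against 11.49, 11.54 and 11.52, a difference of 0.062 ± 0.045. Grik1 went the other way without overlap, at 9.23, 9.25 and 9.29 against 9.34, 9.33 and 9.36, a difference of -0.084 ± 0.065. Grik3 differed by 0.036 ± 0.049.

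Grid1 encodes the delta receptor GluD1, which binds cerebellins and organises synapses. At 1 day it read 11.04, 11.02 and 11.07 with DMSO and 11.10, 11.09, 11.19 and 11.15 with celastrol, and at 4 days 11.04, 11.08 and 11.14 against 11.23, 11.18 and 11.17. Celastrol arrays were above DMSO arrays at both times without overlap. The differences were 0.089 ± 0.043 (adjusted p = 0.61) and 0.11 ± 0.046 (adjusted p = 0.723). At 6 h the arrays overlapped, at 11.15, 11.02 and 11.13 against 11.03, 10.99, 11.09 and 11.04, and the difference was -0.060 ± 0.043. The change from 6 h to 4 days, 0.17 ± 0.062, had an adjusted p of 0.611. Grid2ip, the scaffold protein, read 7.59, 7.28 and 7.73 with DMSO at 6 h and 7.37, 7.30, 7.25 and 7.28 with celastrol. At 1 day it read 7.62, 7.18 and 7.05 against 6.99, 7.14, 7.21 and 7.38, and at 4 days 7.24, 7.17 and 7.14 against 7.08, 7.05 and 7.11. The celastrol arrays were all lower at 4 days alone, and the differences were -0.23 ± 0.11, -0.10 ± 0.11 and -0.10 ± 0.12. The average of -0.15 ± 0.067 had an adjusted p of 0.528. It was -0.091 without DMSO replicate 1 of 1 day, -0.061 without DMSO replicates 1 and 3 of 6 h, -0.031 with thalamus and cortex marker covariates and -0.032 with astrocyte and precursor marker covariates.

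At 4 days 7 subunits were higher and 1 lower without overlap between groups, against 8.89% and 5.47% of all tested genes. The 7 were Gabrb1, Gria1, Grik2, Grik4, Grik5, Grid1 and Grin2b, and the 1 was Grik1. At 6 h Gabrd and Gria1 were lower without overlap (4.44% of all tested genes) and no subunit was higher (1.91%), and at 1 day Gabrr2 and Grid1 were higher (4.69%) and Grm3 lower (3.13%).

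The NMDA members were Grin2 subunits, which bind glutamate, and Grin3 subunits, which bind glycine, and Grin1 was not among them. All 4 Grin2 genes were lower at 6 h, by -0.12 ± 0.067 in Grin2a, -0.099 ± 0.057 in Grin2b, -0.064 ± 0.063 in Grin2c and -0.083 ± 0.049 in Grin2d, and none had an unadjusted p under 0.05. Grin2b read 11.15, 11.00 and 11.20 with DMSO at 6 h and 11.03, 10.97, 10.97 and 11.11 with celastrol, with overlap. At 1 day it read 11.11, 11.03 and 11.13 against 11.13, 10.99, 10.95 and 11.16, and at 4 days 11.10, 11.08 and 11.07 against 11.15, 11.11 and 11.13. The 4-day arrays of Grin2b did not overlap, with a difference of 0.047 ± 0.061. The average difference of -0.029 ± 0.034 had the smallest p of the class in the average and turned to 0.012 with thalamus and cortex markers as covariates. Grin3a differed by -0.050, 0.052 and -0.078, and Grin3b by 0.12, -0.052 and -0.062.

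Grm3 is a group II metabotropic receptor, coupled to inhibition of adenylyl cyclase, that is found on astrocytes as well as on neurons. At 1 day it read 11.35, 11.46 and 11.39 with DMSO and 11.18, 11.21, 11.06 and 11.23 with celastrol. Every celastrol array was below every DMSO array. The difference was -0.23 ± 0.050 (95% interval -0.33 to -0.12), a level 1.17-fold lower, with adjusted p = 0.0519 and rank 61 among the p-values of 14129 genes. At 6 h it read 11.22, 11.14 and 11.28 against 11.17, 11.17, 11.19 and 11.18, and at 4 days 11.36, 11.21 and 11.31 against 11.23, 11.11 and 11.18. Those groups overlapped, with differences of -0.033 ± 0.050 and -0.12 ± 0.054 (adjusted p = 0.755). The average over the 3 times was -0.13 ± 0.030, with adjusted p = 0.0607.

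The celastrol means of Grm3 at the 3 times were 11.18, 11.17 and 11.18, and the DMSO means were 11.21, 11.40 and 11.29. DMSO arrays at 1 day exceeded those at 6 h by 0.19 ± 0.054 (adjusted p = 0.157). The change of the celastrol difference from 6 h to 1 day was -0.20 ± 0.071 (adjusted p = 0.424). The call of Grm3 lay at the threshold: its adjusted p at 1 day was between 0.0137 and 0.0491 under 10 of the 33 other settings and between 0.0504 and 0.702 under the rest. Leaving out DMSO replicate 2 at 1 day gave -0.20 with adjusted p = 0.333.

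Marker lists of cell types and regions were read at 1 day, where 46.2% of all tested genes were lower, and no list was tested as a whole. Of 8 astrocyte markers 5 were lower and 3 higher (Fgfr3 by 0.14, Aldh1l1 by 0.096 and Gfap by 0.013), with a median difference of -0.073, and array means were 11.02 to 11.11 with DMSO and 10.99 to 11.04 with celastrol. Sox9, a transcription factor of astrocytes, differed by -0.24 (adjusted p = 0.0478). All 4 markers of oligodendrocyte precursors were lower, with a median of -0.085 and array means of 9.56 to 9.60 against 9.40 to 9.54. Of 7 tested oligodendrocyte markers 6 were lower, with a median of -0.11, and of 10 neuron markers 8 were lower, with a median of -0.034. Of 4 tested microglia markers 2 were lower and 2 higher, with a median of -0.088. Array means of the striatum markers were 9.57 to 9.69 with DMSO and 9.71 to 9.85 with celastrol, without overlap. Those of the endothelium were 9.62 to 9.68 against 9.45 to 9.66. Array means of the hypothalamus, thalamus, cortex and hippocampus, pituitary and choroid plexus lists overlapped. Of 6 markers of tanycytes and ependyma, cells that line the third ventricle, 5 were higher, with a median of 0.090 and array means of 8.37 to 8.47 with DMSO and 8.53 to 8.63 with celastrol, and Dio2, the enzyme that activates thyroid hormone, was higher by 0.50 (adjusted p = 0.0423). With astrocyte and precursor marker means as covariates, chosen after seeing the data, the Grm3 difference was -0.15 ± 0.075, with adjusted p = 0.702. The part of these cells and regions in the Grm3 difference was not tested.

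The RefSeq promoter window of Grm3, the member nearest to the threshold, is chr5:9725303-9725602 on the minus strand (GRCm38.p6), with GC boxes in capitals.
Grm3: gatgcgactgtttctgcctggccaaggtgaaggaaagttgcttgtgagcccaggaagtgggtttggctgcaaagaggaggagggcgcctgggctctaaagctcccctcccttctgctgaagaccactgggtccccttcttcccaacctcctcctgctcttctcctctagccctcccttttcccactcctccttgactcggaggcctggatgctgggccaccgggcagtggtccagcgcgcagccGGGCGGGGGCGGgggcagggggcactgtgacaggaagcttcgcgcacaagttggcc

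It held 2 GC boxes back to back, a GC content of 63.7% and none of the other motifs.

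Grm4, a group III receptor of presynaptic terminals that also lowers cyclic AMP, was lower at all 3 times. It read 9.78, 9.53 and 9.74 with DMSO at 6 h and 9.63, 9.47, 9.63 and 9.46 with celastrol, 9.64, 9.57 and 9.65 against 9.61, 9.49, 9.45 and 9.57 at 1 day, and 9.73, 9.65 and 9.62 against 9.62, 9.54 and 9.61 at 4 days. The groups overlapped at each time, the last pair only at 9.62. The differences were -0.13 ± 0.061 (adjusted p = 0.658), -0.090 ± 0.061 and -0.076 ± 0.066, and the average was -0.10 ± 0.036 with adjusted p = 0.348.

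Grm5, a group I receptor that releases calcium from stores, was higher at 4 days. It read 11.96, 11.97 and 12.04 with DMSO and 12.14, 12.07 and 12.03 with celastrol, with overlap, a difference of 0.086 ± 0.048 (adjusted p = 0.812). It read 12.09, 11.98 and 11.96 against 11.96, 11.91, 12.05 and 11.92 at 6 h, and 12.04, 11.97 and 12.003 against 12.012, 11.99, 11.9999 and 12.04 at 1 day. Without celastrol replicate 1 the 4-day difference was 0.056. Grm2, the other group II receptor, differed by -0.0019, 0.0033 and 0.0099 at the 3 times, and its interval at 1 day was -0.088 to 0.095. The group III receptors Grm7 and Grm8 differed by less than 0.1 at every time, as did Grm6, which is known from bipolar cells of the retina.

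**Figure D4:**
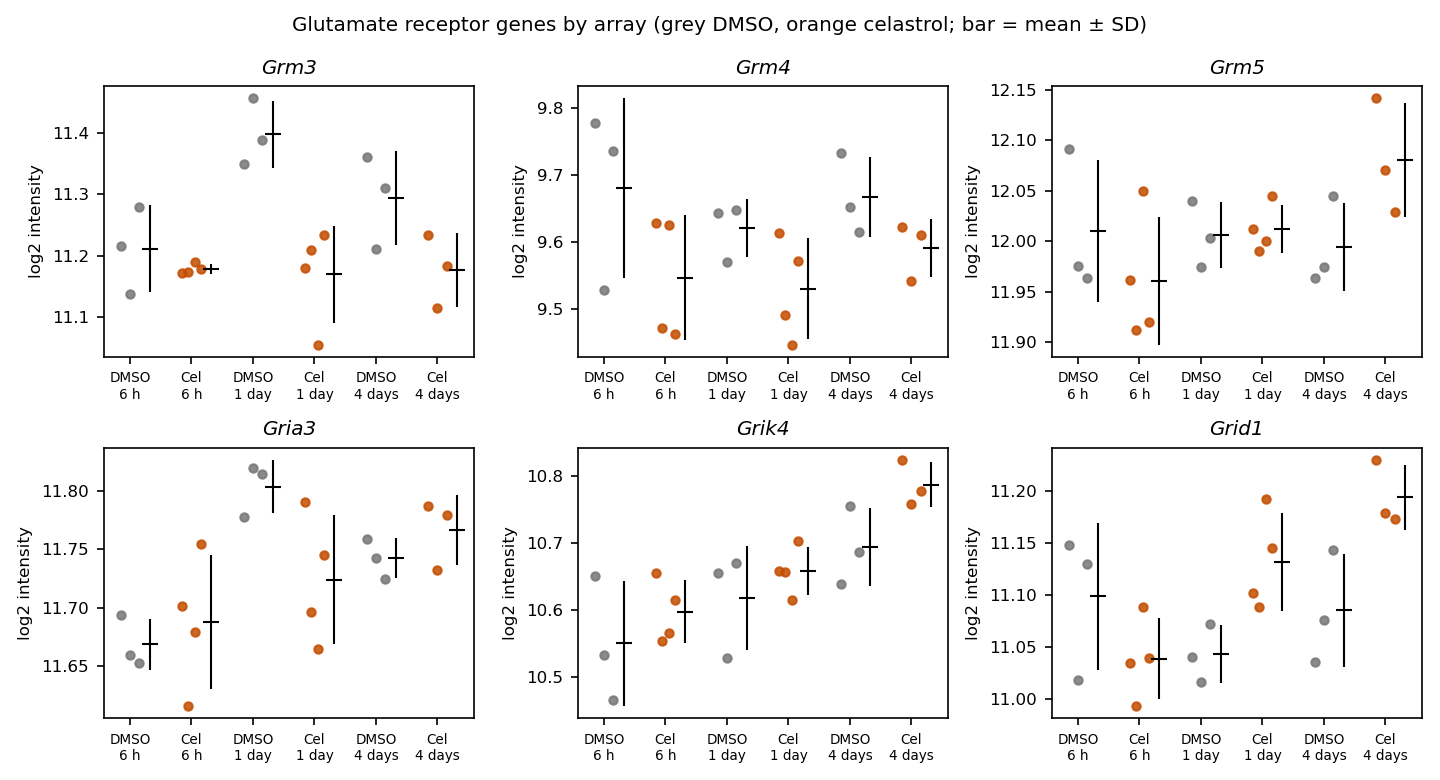
Log2 intensity of Grm3, Grm4, Grm5, Gria3, Grik4 and Grid1 on each array by group (grey points DMSO, orange points celastrol, bar with line the mean ± SD of 3 or 4 arrays). Grm3 lies between 11.35 and 11.46 with DMSO and between 11.06 and 11.23 with celastrol at 1 day.

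At 6 h the 4 subunits with the smallest p, Gabrd, Gabra4, Gabbr2 and Grm4, were high on the DMSO arrays that were also high in markers of the thalamus, a region that borders the hypothalamus. The mean of 9 thalamus markers was 9.21, 8.96 and 9.49 on the DMSO arrays at 6 h, 9.02, 8.90, 8.91 and 8.85 on the celastrol arrays at 6 h, and 8.75 to 8.94 on all others. At 6 h 8 of the 9 markers were lower after celastrol, with a median of -0.31, and 0 were called. With thalamus and cortex marker means as covariates, the 6 h differences were 0.017 in Gabra4, -0.039 in Gabrd, -0.049 in Gabbr2 and 0.015 in Grm4. Without DMSO replicates 1 and 3 at 6 h, an alternative chosen after seeing the data, they were -0.024, -0.040, -0.013 and 0.019. These values set celastrol against DMSO replicate 2 alone. The arrays left out were the highest pair of all arrays in each of these genes, so smaller differences had to follow. Leaving out DMSO replicate 1 alone gave -0.061 in Gabbr2 and -0.085 in Grm4, and leaving out DMSO replicate 2 gave -0.21 in Grm4. In the fit with these covariates the slope on the thalamus mean was 1.05 ± 0.26 log2 units per unit for Gabrd (adjusted p = 0.589), 0.85 ± 0.21 for Gabra4 (adjusted p = 0.589), 0.34 ± 0.14 for Grm4 (adjusted p = 0.999), 0.17 ± 0.13 for Gabbr2 (adjusted p = 0.999) and 1.08 ± 0.22 for Grid2ip (adjusted p = 0.27). No member's slope was called, against 0.0213% of 14114 genes. Without DMSO replicate 3 at 6 h the slopes were 0.74 ± 0.39 for Gabrd, 0.49 ± 0.30 for Gabra4 and 0.66 ± 0.20 for Grm4. Those of Gabbr2 and Grid2ip were 0.36 ± 0.18 and 1.37 ± 0.32. The adjusted p in limma of these slopes lay between 0.846 and 0.922, and 0% of 14114 genes were called. The part of the dissected region in these differences was not tested further.

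**Figure D5:**
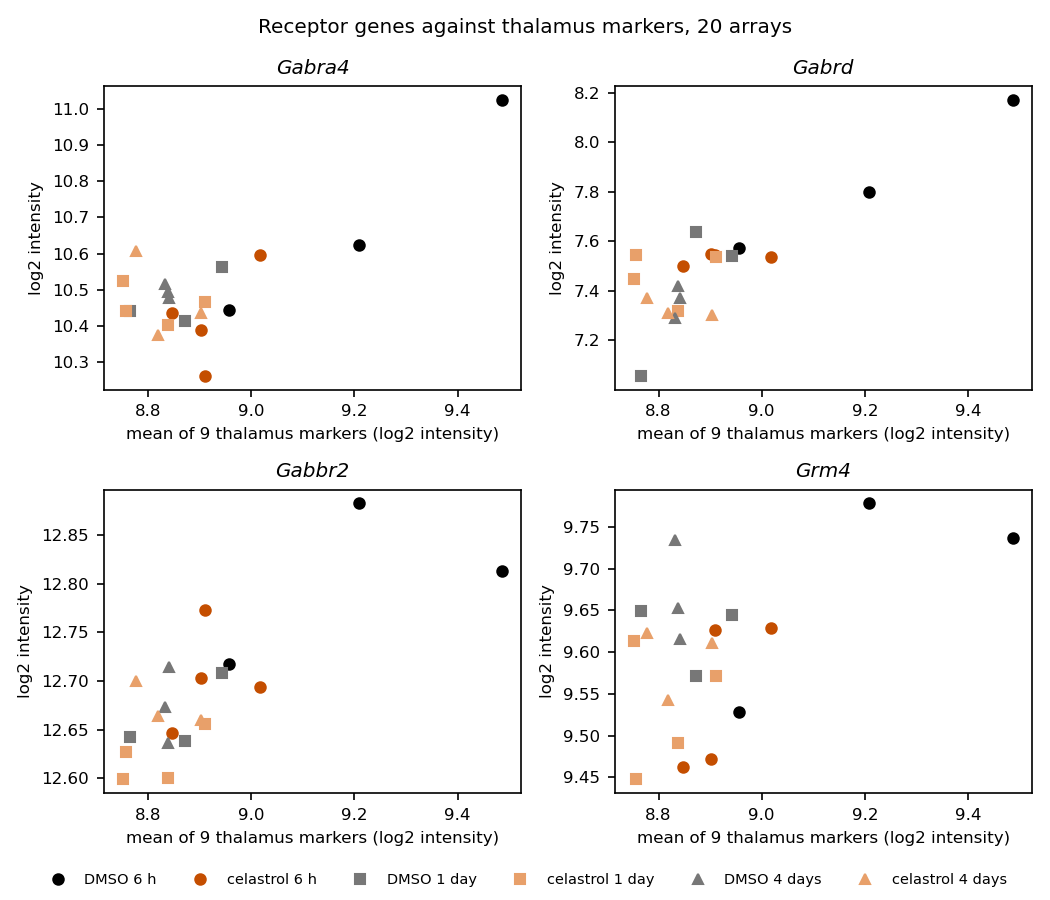
Log2 intensity of Gabra4, Gabrd, Gabbr2 and Grm4 on each of the 20 arrays against the array's mean of 9 thalamus markers, with colour for treatment and shape for time. DMSO replicates 3 and 1 at 6 h (marker means 9.49 and 9.21) lie at the right of each panel and are the highest pair of the 20 arrays in Gabra4, Gabrd, Gabbr2 and Grm4.

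The difference after celastrol was compared between times for each member. None was called, against 0.00708% of all tested genes for 1 day minus 6 h, 0.0142% for 4 days minus 6 h and 0.00708% for 4 days minus 1 day. The subunits with the smallest p were Grm3, Grid1 and Gabrd for 1 day minus 6 h, at -0.20, 0.15 and 0.37, and Grid1 and Grin2a for 4 days minus 6 h, at 0.17 and 0.21. These comparisons share arrays with those at each time.

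On DMSO arrays alone, subunits differed between times by up to -0.49. None was called, against 0.0991% of all tested genes at 1 day against 6 h, 0.0283% at 4 days against 6 h and 0% at 4 days against 1 day, and the unadjusted p was under 0.05 for 2 subunits higher and 7 lower, 2 higher and 5 lower, and 1 higher and 0 lower. The comparable shares of all tested genes were 5.87% higher and 6.67% lower, 4.81% and 5.78%, and 3.52% and 3.85%. Gabrd was lower at 1 day by -0.44 ± 0.13 and at 4 days by -0.49 ± 0.13 than at 6 h (adjusted p = 0.157 and 0.167), and Gabbr2 by -0.14 and -0.13. GABA-A genes were lower in 11 of 13 in both of these comparisons, with medians of -0.062 and -0.10, while all 5 kainate genes were higher, with medians of 0.033 and 0.063. The median of all tested genes was -0.0020 and -0.0052. After quantile normalization 10 of 13 GABA-A genes were lower in each, and all 5 kainate genes were higher. Both comparisons share the DMSO arrays at 6 h, which are also the controls of the 6 h comparison and of which replicates 1 and 3 had the highest thalamus marker means.

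Genes that make, package and clear the transmitters, and that anchor the receptors, were taken from 4 lists. None of their 56 tested genes passed the adjusted threshold at any time. Of 8 genes for GABA synthesis, packaging and uptake 4 were higher at 6 h, 4 at 1 day and 2 at 4 days, and of 9 for glutamate 3, 3 and 4. Of 11 inhibitory scaffold and chloride transport genes 5, 6 and 6 were higher, and of 28 excitatory scaffold and auxiliary genes 12, 13 and 20. Slc38a2, a glutamine transporter, was higher at 1 day by 0.21 ± 0.054 (adjusted p = 0.138), and Slc32a1, which loads GABA into vesicles, by 0.13 ± 0.051 (adjusted p = 0.479). Grip2, an AMPA receptor anchor, was lower at 1 day by -0.17 (adjusted p = 0.539).

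Neto2, an auxiliary subunit of kainate receptors, was lower at 6 h by -0.20 ± 0.061 (adjusted p = 0.582), with arrays at 10.75, 10.72 and 10.96 with DMSO and 10.57, 10.70, 10.65 and 10.51 with celastrol, and in the average by -0.14 ± 0.036 (adjusted p = 0.105). Slc17a7, a vesicular glutamate transporter of cortex and thalamus, differed by -0.39 ± 0.16 at 6 h, at 8.24, 7.51 and 8.49 against 7.69, 7.73, 7.65 and 7.69. DMSO replicates 1 and 3 were above all celastrol arrays and DMSO replicate 2 below them. Homer2, a metabotropic receptor anchor, differed by -0.096 at 6 h. At 4 days Camk2a and Camk2b, the postsynaptic calmodulin kinases, were higher by 0.13 ± 0.046 (adjusted p = 0.585) and 0.10 (adjusted p = 0.614), and the AMPA receptor anchor Grip1 by 0.098 (adjusted p = 0.739). The enzymes that make GABA, Gad1 and Gad2, differed by -0.069 ± 0.042 and -0.053 ± 0.041 at 1 day.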

How the data were processed

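Gene expression was measured on 20 arrays in 6 groups taken from the labels. For 23492 probe sets the deposited values are log2 intensities made with RMA, per the submitters' processing notes (background correction, quantile normalization and a summary per probe set). Its version, the array build and the rule by which these probe sets entered the deposited values were not given in the sources used. Quantile normalization hides a shift shared by most genes. The brightest probe set with 1 platform symbol stood for a gene. Dim probe sets, with a mean under the 25th percentile (log2 7.04), were dropped, which left 14129 tested genes. The number of arrays limits the precision: the median standard error of a difference was 0.060 at 6 h.

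The test was limma 3.58.1 (R 4.3.3), fitted over the 6 group means with eBayes (14 residual and 4.92 prior degrees of freedom), two-sided, with Benjamini-Hochberg adjustment over all 14129 genes and a threshold of 0.05. Every p in the text is from limma. Where an alternative or a slope is named, it is from a refit with that change, and elsewhere from this fit. Slope p-values were adjusted over 14114 genes. Each p sets a difference or slope against the spread between these arrays. Array values were given for members past the threshold and for the 4 members with the smallest p at each time and in the average. They were also given for the member of each class with the smallest p in the average. The other array values of members (Gabrb1, Gria1, Grik1, Grik2, Grik5) were chosen after they were seen, as groups that did not overlap. Array values of the pathway genes Neto2 and Slc17a7 were outside these rules. Of the pathway lists, the 3 genes with the smallest p at each time were named, and Gad1 and Gad2 were added after their values were seen. The members, lists and tests were chosen with earlier results of these data known. The alternatives tried were array centring, repeated quantile normalization, no or a stricter filter (50th percentile), the mean of probe sets, the arrays of the compared groups alone, a replicate block, array weights, an intensity trend, marker covariates and leaving out arrays. The fit was tested on simulated data. All 42 members matched RefSeq by gene ID, and 32 had a promoter window, of 300 bases, in the RefSeq table.

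The labels give the same replicate numbers to each group. Deviations from the group means of celastrol and DMSO arrays with the same number at the same time correlated between -0.29 and 0.29. The numbers were therefore not taken to pair celastrol with DMSO arrays. That check did not compare arrays of the same number across times. On the leading residual component DMSO replicate 3 scored 11.4, 9.61 and 0.13 at 6 h, 1 day and 4 days, and celastrol replicate 1 scored 4.72, 5.32 and 4.67. Whether the numbers mark a shared batch was not tested.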

Additional observations from a re-analysis of the deposited data

Results flagged for a closer look

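Of 78 groups of 4 celastrol arrays (39 tested members at 6 h and at 1 day), 3 held an array far from the others by Dixon's test, which chance alone gives in about 1 of 20. Gabrb2 read 11.98 on celastrol replicate 1 at 1 day, against 11.81 to 11.83 on the other 3 arrays, a gap of 0.88 of the group's range. Gabrg3 read 11.81 on celastrol replicate 3 at 1 day, against 11.95 to 11.97, a gap of 0.88 of the range. Grik3 read 10.79 on celastrol replicate 2 at 6 h, against 10.90 to 10.92, a gap of 0.83 of the range. Groups of 3 arrays were not examined in this way.

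Gria1 was the 1 member whose celastrol arrays all lay on opposite sides of the DMSO arrays at 2 times, below them at 6 h and above them at 4 days. The difference between the times, 0.12 ± 0.056, had an adjusted p = 0.648 in limma, so it did not pass the threshold.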

How the results depend on the processing

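With 3 or 4 arrays a group, single-gene differences below about 0.11 log2 units at 6 h and 1 day lay inside the typical 95% interval, and probe sets near the filter, such as Gabrd and Gabrr1, respond less to a change in RNA. At 6 h, at 4 days, between times and between DMSO groups, 0 members were called under each alternative that was run. At 1 day 1 member, Grm3, was called instead of 0 with arrays centred (-0.25, adjusted p = 0.0467), quantile normalized again (adjusted p = 0.0344), a stricter filter (0.0306), array weights (0.0137), an intensity trend (0.0173) and without DMSO replicates 1 and 3 of 6 h together (0.0467), and in the average 1 member, Grm3, with a stricter filter (0.0393) and an intensity trend (0.0253). The count over single left-out arrays ran from 0 to 1 at 1 day and from 0 to 1 in the average, with Grm3 at 1 day between -0.25 and -0.19 (adjusted p 0.0388 to 0.333). The cause of these changes was not tested, except that a stricter filter tests fewer genes. The replicate block gave Grm3 at 1 day -0.24 with adjusted p = 0.0701 and changed no call of a member.

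At 6 h the balance of the subunits turned from 9 higher and 29 lower to 25 and 13 without DMSO replicates 1 and 3 of 6 h. That setting kept DMSO replicate 2 as the only control at 6 h. With thalamus and cortex covariates the balance was 23 and 15. Leaving out any 1 array kept 24 to 30 of 38 subunits lower. Each class median turned positive under at least 1 alternative. The highest values were 0.013 for GABA-A, 0.016 for GABA-B, 0.0038 for AMPA and 0.034 for kainate. For delta, NMDA and metabotropic subunits they were 0.021, 0.029 and 0.029. Those of all classes but GABA-A and AMPA came from the setting with 1 control array. Signs also turned in Gabra4 at 6 h (0.017) and Grm4 at 6 h (0.015) with thalamus and cortex covariates, in Grm4 at 6 h (0.019) without DMSO replicates 1 and 3 of 6 h, and in the Grin2b average with those covariates (0.0118), without those arrays (0.0119) and with astrocyte and precursor covariates (0.0144). Over all tested genes, calls ranged from 0 to 6 at 6 h (0 as reported), 1 to 196 at 1 day (60), 0 to 20 at 4 days (9), 1 to 156 in the average (81), 0 to 7 between times (4) and 0 to 174 between DMSO groups (18). The fit on the compared groups alone does not exist apart from the reported one for the average.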
